A study of Mus musculus with 7 samples.

Results

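The miRNAs described here are the 3p arms of the numbered names miR-6896 to miR-7094, 199 of the 1881 mouse miRNA names on the array (10.6%). They were chosen by name alone, as every 3p name with a number from 6896 to 7094, with or without a letter after it. The 7 one-colour arrays hold RNA of CD4+ T helper cells, selected with beads from the draining lymph nodes of mice. In 4 arrays the mice had myocarditis (the EAM model), and in 3 arrays they had myocardial infarction (the LAD model). The labels of the samples give day 6 after induction for EAM and day 3 for LAD, whereas the text of the series has these days the other way round. Strain, age, sex and the number of animals behind a sample are not in the labels, and no cells of healthy mice were measured. Model, day and position on the slide changed together and cannot be told apart. The labels do not say that the samples of a group came from separate animals, so the p-values measure the spread between these samples only.

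Mirtrons are short introns that fold into a hairpin once they have been spliced out. They enter the miRNA pathway at Dicer and bypass cleavage by Drosha. In a mirtron the 3p arm ends at the 3′ end of the intron, so that it carries the splice acceptor and the pyrimidine tract before it. The hairpins of this block of names come largely from sequencing surveys.

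These features were common in the block. RefSeq (GRCm38.p6) held a mature sequence for 175 of the 199 names. Of these, 77.7% ended in AG and 67.4% in CAG, against 11.2% and 5.6% of the 500 other 3p names with a sequence. Among members with a sequence, AG ended 63.6% of those tested for a group difference below and 81.4% of those detected on no array. Pyrimidines made up 72.0% of the bases in the median member and 54.5% in the median other 3p name. A run of 4 C (CCCC) was present in 26.9% of the members with a sequence and in 7.6% of the other 3p names. The miRNAs below are the 12 with the smallest p-values among those tested and found in RefSeq, then miR-6902-3p, which went the other way, and 3 names detected on LAD arrays 1 and 3 only, picked for display after their values were seen. They are written 5′ to 3′, with the seed (bases 2 to 8, which pair with target mRNAs) in capitals.
miR-7022-3p: aCAAGCCUgaccucugccccca
miR-6943-3p: cUGCUUCCauaccccuacccag
miR-6968-3p: aCAAGCGCugucuccccuccag
miR-7047-3p: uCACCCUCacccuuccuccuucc
miR-6934-3p: aCCUCUGCuccugccccaccag
miR-7085-3p: uAGCUGGCcucuccccaccuuc
miR-7057-3p: uAAUUUGAugucuuucuccacc
miR-6976-3p: aUCUCCCUcccaacuccccag
miR-7080-3p: cAGGCUCAccccuccguucccu
miR-6931-3p: cCCAACCUcuucauaccccag
miR-7036a-3p: cCGUCCUCauccgcuccucccag
miR-7055-3p: uUGCUACUuugauaccccaccag
miR-6902-3p: cCAUGUGAuguguggguucag
miR-6998-3p: aGAGCUGCucugugcccacaca
miR-6957-3p: uGGAUCUCuuguuuucucuucc
miR-7058-3p: cUCGUUCCuuccuuucuuccag

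No seed in this list was shared with another name on the array that has a RefSeq sequence. Among the other detected members, miR-6897-3p shared its seed with miR-5106, miR-7069-3p with miR-18a-3p, miR-6945-3p with miR-6927-3p and miR-7006-3p with miR-1966-3p. Of the 175 located members, 174 lay within the span of a protein-coding gene. For 151 of them a gene on the same strand was found, and for the other 23 the strand of the gene was not in the table used. miR-7022-3p lies within Fbxo6, which encodes a substrate-binding subunit of a ubiquitin ligase (GRCm38.p6, chromosome 4, 148146937 to 148146958, minus strand). miR-6902-3p lies within Ppp1r7, a regulatory subunit of protein phosphatase 1 (chromosome 1, 93346135 to 93346155, plus strand). Some host genes act in T cells. miR-7058-3p lies within Lat and miR-6957-3p within Grap2, adaptors of T cell receptor signalling, and miR-6973a-3p lies within Ltb, which encodes lymphotoxin beta. These are examples picked from detected members. miR-6974-3p within Lta and miR-7086-3p within Il10ra, also immune genes, were detected on no array.

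The LAD arrays were dimmer than the EAM arrays as a whole. The 75th percentile of signal over the probes detected on all 7 arrays was 799 to 1071 intensity units on the EAM arrays and 193, 501 and 124 on LAD arrays 1, 2 and 3. The negative-control spots did not share this difference, with a median mean signal of 45.6 to 50.9 in EAM and 47.3 to 49.6 in LAD. All 5 lymphocyte miRNAs on the marker list were detected on every array, with a summed signal of 75110 to 103732 in EAM and 5931 to 29044 in LAD. Most of this sum was miR-142a-3p. miR-181a-5p went the other way on LAD arrays 2 and 3, with 254 to 391 units in EAM and 181, 3298 and 451 in LAD (quantile-normalized difference -3.24, limma adjusted p = 0.00935). Of the markers of other cells, 1 of 2 myeloid, 1 of 2 red cell, 1 of 4 epithelial and stromal, 0 of 3 muscle and 0 of 1 liver miRNAs were detected on any array. The myeloid markers summed to 102 to 121 in EAM and 57.0 to 174 in LAD, and the red cell markers to 93.0 to 178 and 22.1 to 76.3. After quantile normalization the detected myeloid miRNA, miR-223-3p, was called toward LAD (difference -1.74, limma adjusted p = 0.0103). miR-150-5p was called toward EAM (difference 1.42, limma adjusted p = 0.0327). miR-342-3p, miR-142a-3p, miR-142a-5p and the red cell miRNA miR-451a were not called. Fewer cells of a type and less RNA per cell cannot be told apart in these samples. The part of array brightness in the results below was not tested.

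More of these 3p arms were detected on LAD arrays 1 and 3 than on any EAM array, while the total number of names detected was lower on every LAD array than on every EAM array. By the scanner software's mark, 21, 26, 21 and 23 of the 199 were detected on EAM arrays 1 to 4, and 46, 24 and 41 on LAD arrays 1 to 3. This averaged 22.8 ± 2.36 for EAM (SD, n = 4) and 37 ± 11.5 for LAD (SD, n = 3). LAD array 2, the brightest of its group, fell within the EAM range, so the groups overlapped. Over all names the mark was set for 445 to 471 on the EAM arrays and 311 to 380 on the LAD arrays. The 5p arms of the same names, 200 on the array, gave 52 to 54 detected on the EAM arrays and 19, 37 and 19 on the LAD arrays. Of the 586 other 3p names, 151 to 160 were detected on the EAM arrays and 120 to 136 on the LAD arrays. When a name counted as detected above the 95th percentile of the negative-control spots of its own array, the 3p arms gave 38, 47, 34 and 44 in EAM and 51, 42 and 55 in LAD. Above the 99th percentile they gave 0, 26, 18 and 33 in EAM and 36, 27 and 40 in LAD. The 0 on EAM array 1 goes with a few bright negative-control spots there, whose 99th percentile was 72.9 intensity units after background subtraction against 7.96 to 11.8 on the other arrays.

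**Figure D1:**
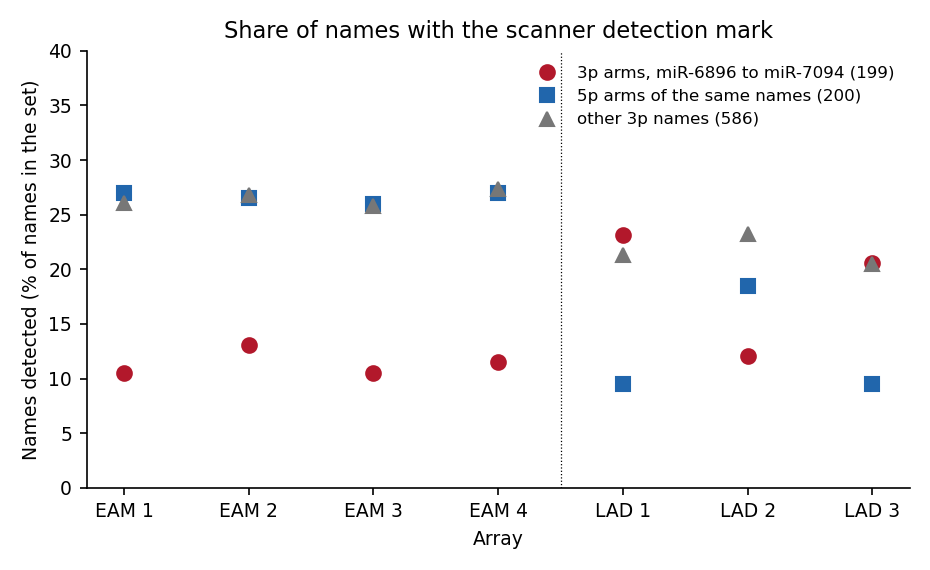
Share of names with the scanner's detection mark (y axis, percent of the names in each set) on each of the 7 arrays (x axis). Circles are the 199 3p arms, squares the 200 5p arms of the same names and triangles the 586 other 3p names; the 3p arms are highest on LAD arrays 1 and 3 (46 and 41 names), where the 5p arms are lowest (19 names each).

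Across the arrays, 50 of the 199 (25.1%) were detected at least once, against 29.4% of all names. Of these, 19 were detected on all 7 arrays. The filter for testing, detection on every array of at least 1 group, passed 24. The other 26 were detected on some arrays only, 22 of them on LAD arrays only, and 149 were detected on none. Over the 149, the group mean of background-subtracted signal had a median of 0.20 intensity units in EAM (range -4.05 to 8.47) and 0.81 in LAD (range -3.52 to 9.25). The median of all 199, as the unscaled log2 signal minus the median of the negative controls on the same array, averaged -0.00051 ± 0.0028 over the EAM arrays (SD, n = 4) and 0.0025 ± 0.024 over the LAD arrays (SD, n = 3). The median member thus lay at the median of the negative controls in both groups.

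The members that were detected throughout had nearly the same unscaled signal on every array, in both models. Signal here is background-subtracted intensity, not scaled between arrays. miR-7022-3p gave 46.4, 40.8, 39.1 and 39.1 units on EAM arrays 1 to 4 and 43.6, 41.7 and 42.9 on LAD arrays 1 to 3. miR-6943-3p gave 31.8, 30.9, 28.4 and 28.2 in EAM and 30.9, 29.4 and 29.5 in LAD. The LAD values of both lay inside the EAM range. miR-6976-3p, within the gene of the transcription factor Srf, gave 26.9, 25.5, 24.9 and 23.3 in EAM and 23.0, 24.7 and 25.4 in LAD. miR-6897-3p gave 19.96, 18.4, 16.4 and 15.7 in EAM and 17.5, 17.4 and 16.9 in LAD. These too overlapped. In 18 of the 19 members detected on all arrays, the coefficient of variation (CV, SD over mean) across the 7 arrays was below 20%, as in 57 of all 251 names detected on all arrays (22.7%).

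Over the 24 tested members the median ratio of LAD to EAM unscaled signal was 1.02, and the median CV was 8.47%. Over all 423 tested miRNAs these were 0.306 and 60.4%. The 5p arms of the same names with a test (48) had a median ratio of 0.257 and a median CV of 63.4%, and the other 3p names with a test had 0.424 and 56.5%. The CV was below 20% in 21 of the 24 members, in 64 of all 423, in 1 of the 48 5p arms and in 22.2% of the other 3p names. The members that exceeded it were miR-7047-3p, miR-7036a-3p and miR-6902-3p. These signals were low: the mean over the 7 arrays ranged from 8.48 to 42.0 units among the 24. The 95th percentile of single negative-control spots was 5.89 to 9.28 units, whereas a member's value is a median over spots, averaged over its probes.

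**Figure D2:**
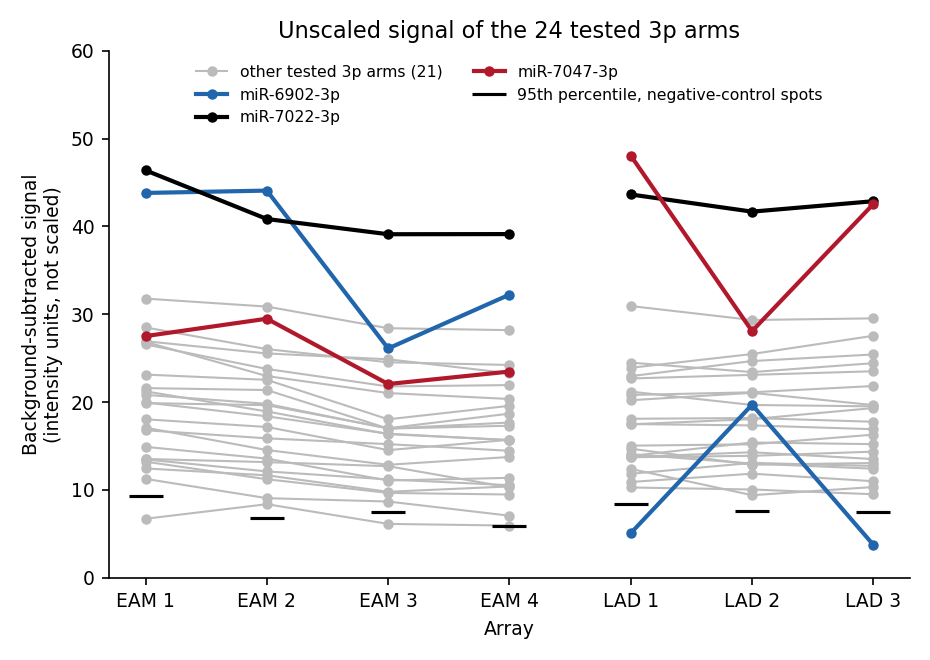
Background-subtracted, unscaled signal (y axis, intensity units) of the 24 tested 3p arms on each array (x axis), with 1 line per miRNA and short black bars for the 95th percentile of negative-control spots. Most lines are level from EAM to LAD, as for miR-7022-3p at 39.1 to 46.4, while miR-7047-3p is higher on LAD arrays 1 and 3 and miR-6902-3p is lower there.

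**Figure D3:**
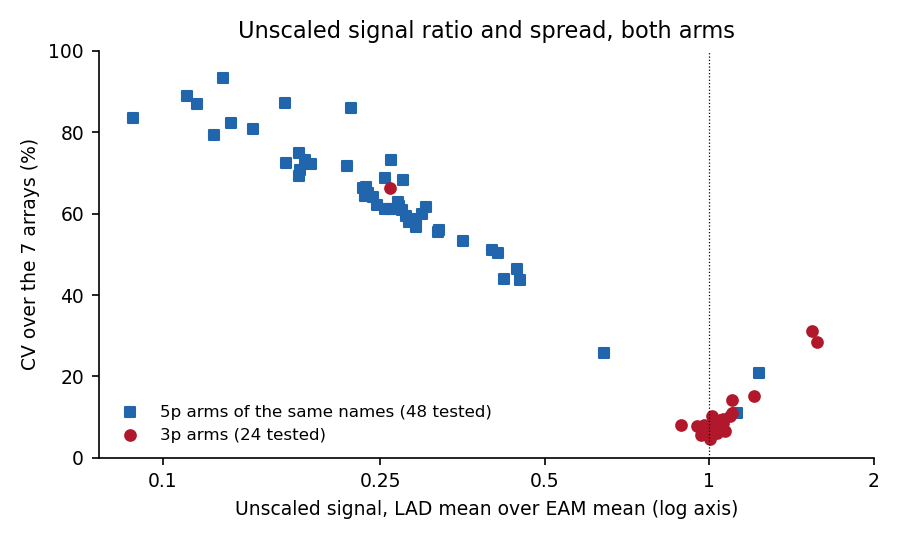
Ratio of the LAD to the EAM mean of unscaled signal (x axis, log scale) and CV across the 7 arrays (y axis, percent) for the 24 tested 3p arms (circles) and the 48 tested 5p arms of the same names (squares). The 3p arms gather at a ratio near 1 with a median CV of 8.47%, and the 5p arms at a median ratio of 0.257 with a median CV of 63.4%.

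The design sets the T cells of myocarditis against those of infarction. After quantile normalization, which gives all arrays the same distribution of values, all 24 tested members passed (limma, adjusted p under 0.05 over the 423 tested), beside 61.2% of all tested miRNAs. Of these, 23 were higher in LAD, beside 24.1% of all tested miRNAs, and 1, miR-6902-3p, was higher in EAM, beside 37.1%. The 19 members detected on all 7 arrays passed the filter for testing through both groups. The other tested members passed it through 1 group only, the group in which they were then called higher. The median difference (EAM minus LAD, log2) was -0.72 over the members and 0.40 over all tested miRNAs. For 23 of the 24 the quantile-normalized values of the groups did not overlap, with LAD higher, beside 22.2% of all tested. The calls toward LAD ended without scaling. Then 1 of the 24 passed (70.4% of all tested did), miR-6902-3p toward EAM (70% of all), and 0 passed toward LAD (0.473% of all). This fit used log2 values corrected for background with normexp, a different measure from the background-subtracted signal above. The members' median difference was 0.079 without scaling and that of all tested miRNAs 1.37. Of the 23 differences toward LAD, 20 changed sign. In the unscaled signal the groups overlapped for 21 members. miR-7036a-3p was higher in LAD without overlap, beside 1.42% of all tested, and miR-6902-3p and miR-7069-3p were higher in EAM, beside 68.3%.

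Other scalings moved the count as well. With each array centred on the median of all 1881 names, 6 members passed (72.8% of all tested did), 5 toward LAD (8.75% of all) and miR-6902-3p toward EAM (64.1%). With centring on the median of the 423 tested miRNAs, an alternative added after the data were seen, all 24 passed (66.2% of all tested did), 23 toward LAD (23.9%) and 1 toward EAM (42.3%). In the authors' table, tested the same way, 23 passed (56.7% of all tested did), 22 toward LAD (21.5%) and 1 toward EAM (35.2%). With every miRNA detected on at least 1 array tested, 46 of 50 members passed (60.8% of all did), 45 toward LAD (26.2%) and 1 toward EAM (34.5%). Of the 26 members that this filter added, 22 were detected on LAD arrays only, so their calls toward LAD lend no separate support. Under each scaling tried, 23 of the 24 differences lay toward LAD, whether or not they passed; without scaling 3 did.

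**Figure D4:**
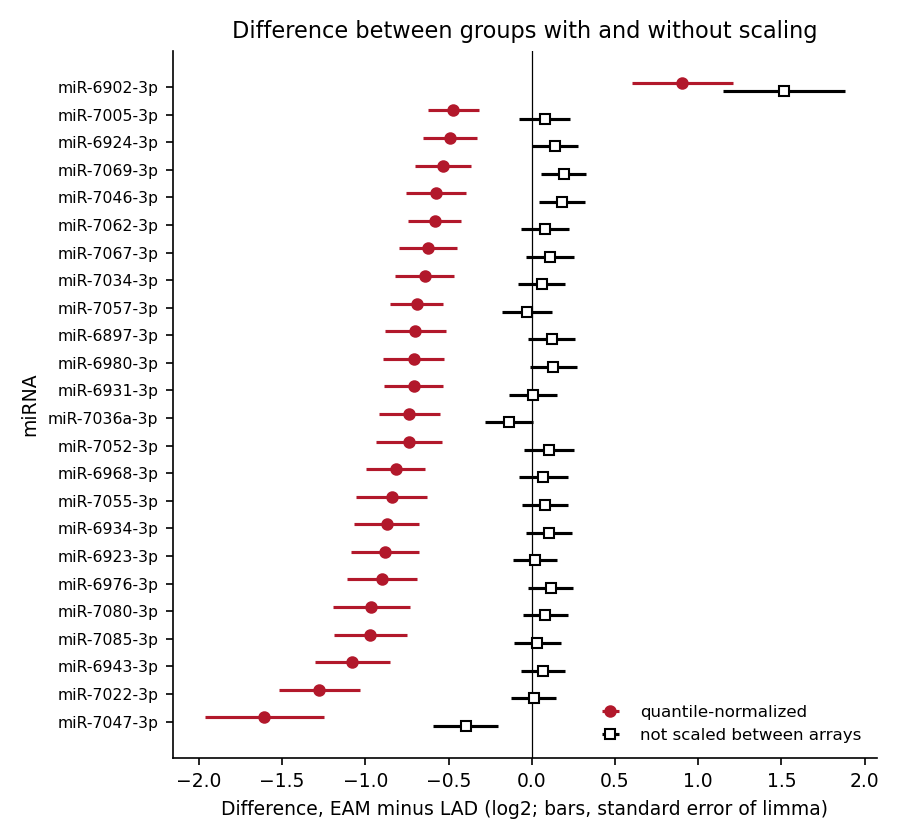
Difference between groups (x axis, EAM minus LAD, log2; bars are limma standard errors) for the 24 tested 3p arms (y axis), after quantile normalization (filled circles) and without scaling between arrays (open squares). After normalization 23 of the 24 lie on the LAD side; without scaling the median is 0.079, and miR-7047-3p, miR-7036a-3p and miR-7057-3p are the 3 that lie on the LAD side.

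miR-7022-3p is an example of this dependence. Its quantile-normalized log2 signal was 5.25, 5.36, 5.54 and 5.43 in EAM and 6.81, 6.11 and 7.09 in LAD, a 2.42-fold difference toward LAD (log2 standard error 0.24, limma adjusted p = 0.00935). Without scaling its difference was 0.012 (log2 standard error 0.14, limma adjusted p = 0.958), and with centring on all names it was -0.35 (limma adjusted p = 0.0522). In the authors' table its difference was -0.81 (limma adjusted p = 0.0138).

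The next largest quantile-normalized differences toward LAD were -1.08 (log2) for miR-6943-3p, -0.97 for miR-7085-3p, -0.96 for miR-7080-3p and -0.90 for miR-6976-3p. miR-7085-3p lies within Slc37a4, the glucose-6-phosphate transporter. The differences were -0.88 for miR-6923-3p, -0.87 for miR-6934-3p, -0.84 for miR-7055-3p and -0.82 for miR-6968-3p, which lies within the gene of the Polycomb-associated protein Phf1. They were -0.74 for miR-7052-3p and -0.71 for both miR-6931-3p and miR-6980-3p. miR-6897-3p, miR-7034-3p, miR-7067-3p and miR-7062-3p had -0.70, -0.64, -0.62 and -0.58. miR-7046-3p, miR-7069-3p and miR-6924-3p had -0.58, -0.53 and -0.49. Without scaling, these 18 differences lay between 0.0085 (miR-6931-3p) and 0.19 (miR-7069-3p), and none passed.

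miR-7047-3p stood apart from the level group. Its unscaled signal was 27.5, 29.5, 22.1 and 23.5 units in EAM and 48.1, 28.1 and 42.6 in LAD. LAD arrays 1 and 3 lay above every EAM array, and LAD array 2 lay within the EAM range. After quantile normalization it had the largest difference toward LAD among the members, 3.05-fold (log2 standard error 0.36, limma adjusted p = 0.0109), and it passed in each of the scaled fits and in each fit without 1 array. Without scaling its difference was -0.40 (log2 standard error 0.20, limma adjusted p = 0.109), and without scaling and without LAD array 2 it was -0.58 (limma adjusted p = 0.00571). Both of its probes showed this pattern: the shorter gave 19.2 to 27.1 units in EAM and 45.0, 25.5 and 40.4 in LAD, and the longer 24.9 to 31.9 and 51.1, 30.7 and 44.7. Its 5p arm, miR-7047-5p, went the other way in unscaled signal, with 117, 97.7, 131 and 126 units in EAM and 28.1, 81.9 and 49.6 in LAD. After quantile normalization the 5p arm did not pass (difference -0.052, limma adjusted p = 0.877).

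miR-7036a-3p, within the gene of the RNA-processing factor Srrt, had weak signal, at 6.73, 8.38, 6.14 and 5.95 units in EAM and 12.4, 9.41 and 10.3 in LAD. It was detected on 2 EAM arrays and all 3 LAD arrays, and the unscaled groups did not overlap. Its quantile-normalized difference was -0.73 (log2 standard error 0.18, limma adjusted p = 0.0145), and without scaling it was -0.14 (limma adjusted p = 0.454). miR-7057-3p and miR-7005-3p carried the detection mark on every LAD array and on none of the EAM arrays, so their EAM values are not well above background. miR-7057-3p, miR-7005-3p, miR-7036a-3p and miR-6924-3p passed the filter for testing through LAD only. That is the group in which they were then called higher, so their p-values lend no separate support. In quantile-normalized values the difference was -0.69 for miR-7057-3p, within Lrrk1 (limma adjusted p = 0.0122), and -0.47 for miR-7005-3p, within the laminin gene Lama5 (limma adjusted p = 0.0316). A floor at the dimmest miRNA detected on each EAM array raised none of these values, so it set no lower bound. The differences amount to 1.61-fold and 1.39-fold toward LAD, on the quantile-normalized scale only. Without scaling the differences were -0.028 and 0.078, and neither passed. Their unscaled signals overlapped between the groups, with 9.48 to 13.2 units in EAM and 12.4 to 14.1 in LAD for miR-7057-3p, and 7.07 to 11.3 and 9.51 to 10.3 for miR-7005-3p.

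miR-6902-3p was the 1 tested member called toward EAM after quantile normalization, and the 1 called without scaling, where 21 of the 24 differences lay on the EAM side. Its unscaled signal was 43.8, 44.1, 26.1 and 32.2 units in EAM and 5.09, 19.7 and 3.76 in LAD. Every EAM array lay above every LAD array, and of the LAD arrays only array 2 detected it. miR-6902-3p thus passed the filter for testing through EAM only, the group in which it was then called higher. Its p-values therefore lend no separate support. The ratio of LAD to EAM was 0.260, beside a median of 0.306 over all tested miRNAs. After quantile normalization the difference was 0.90 (log2 standard error 0.30, limma adjusted p = 0.0327), with 5.19, 5.40, 5.08 and 5.21 in EAM and 3.95, 5.11 and 3.88 in LAD, where LAD array 2 overlapped EAM. The call ended without any single EAM array (limma adjusted p = 0.0650 to 0.0768), without LAD array 1 (0.108) and without LAD array 3 (0.116), and under scaling to the detected probes' 75th percentile (difference 0.31, limma adjusted p = 0.388).

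A second pattern joined LAD arrays 1 and 3. On exactly these arrays 13 members were detected, out of 25 such names on the whole array. miR-6998-3p, within Fubp3, gave 1.61, 0.86, -1.57 and -0.63 units on the EAM arrays, 24.98 on LAD array 1, 1.06 on LAD array 2 and 29.4 on LAD array 3. miR-7013-3p gave 1.34 to 2.84 units on the EAM arrays and 21.6, 1.93 and 16.4 on the LAD arrays. In both, LAD array 2 lay within the EAM range. miR-6957-3p gave 2.34 to 4.34 in EAM and 18.6, 2.70 and 15.1 in LAD. miR-7058-3p gave 2.09 to 6.01 in EAM and 18.5, 3.84 and 12.5 in LAD. miR-6975-3p, within the RNA helicase gene Ddx39b, gave 0.97 to 4.03 in EAM and 17.1, 3.34 and 12.3 in LAD. miR-7064-3p gave 2.00 to 5.16 in EAM and 15.8, 3.25 and 14.1 in LAD. miR-7064-3p, miR-7076-3p and miR-6945-3p fall outside the rule for named miRNAs and were named after their values were seen. The same order held with smaller steps in miR-6986-3p and miR-7017-3p, where the lower of LAD arrays 1 and 3 exceeded the highest other array by 5.55 and 4.58 units. In miR-6963-3p, miR-7006-3p and miR-6982-3p this step was 1.16, 1.17 and 0.15 units, and in miR-7016-3p and miR-7076-3p EAM array 1 exceeded 1 or both of these arrays, so that they carried the mark with no gap in signal.

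These 13 were not tested with all arrays, because LAD array 2 did not detect them. With LAD array 2 left out and no scaling, a fit added after the data were seen, 40 members were tested and 8 passed (79% of all tested did), 7 toward LAD (8.08%) and miR-6902-3p toward EAM (71%). The 7 were miR-7047-3p and, of the 13, miR-6998-3p (difference -1.79), miR-7013-3p (-1.10), miR-6975-3p (-0.82), miR-6957-3p (-0.79), miR-7064-3p (-0.74) and miR-7058-3p (-0.67), with limma adjusted p-values of 9.4e-06 to 0.0087. They entered that fit because both remaining LAD arrays detected them, and LAD array 2 was left out because its values were seen to differ, so these values describe the 2 arrays and do not test the models. LAD arrays 1 and 3 were also the dimmest arrays, with 75th percentiles of 193 and 124 units. The part of that in the pattern was not tested.

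**Figure D5:**
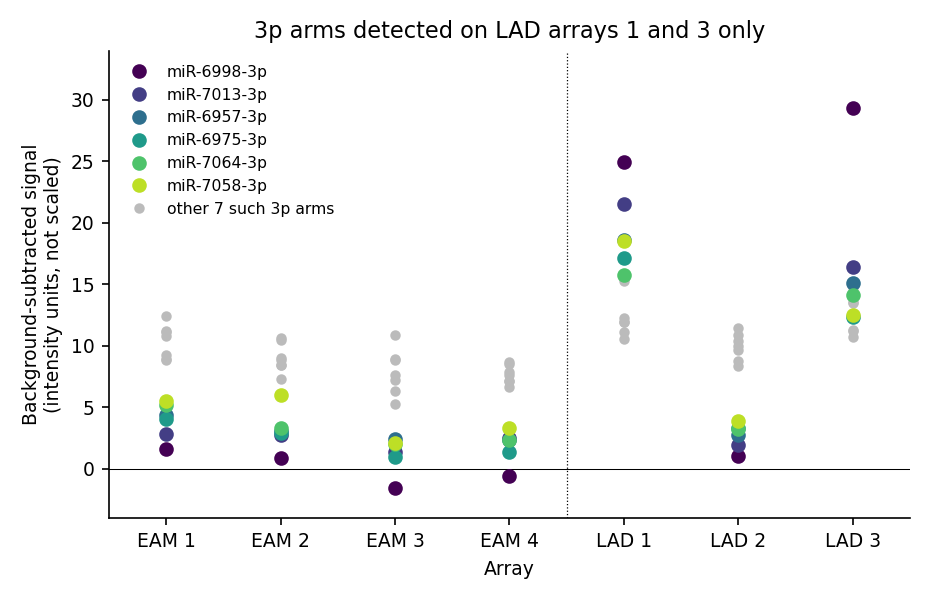
Background-subtracted, unscaled signal (y axis, intensity units) on each array (x axis) of the 13 3p arms detected on LAD arrays 1 and 3 only; the 6 with the largest excess are coloured and the other 7 grey. miR-6998-3p reaches 24.98 and 29.4 on LAD arrays 1 and 3 and stays between -1.57 and 1.61 on the other 5 arrays.

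Of the other detected and untested members, 7 were detected on LAD array 1 alone, as were 11 of all names. LAD array 3 alone detected 2, as it did 4 of all names. Those with the mark on an EAM array were mixed. miR-7082-3p, within Raver1, was detected on 3 EAM and 2 LAD arrays, with 22.6, 19.8, 10.5 and 12.8 units in EAM and 13.8, 9.53 and 10.4 in LAD. miR-6973a-3p gave 13.5, 11.7, 8.56 and 8.21 in EAM and 13.5, 8.37 and 12.1 in LAD, and miR-6984-3p gave 11.1, 12.2, 6.27 and 4.69 and 14.0, 8.93 and 11.7. Both were detected on 1 EAM array and 2 LAD arrays, and their groups overlapped. miR-7045-3p, within Chd4, was detected on 2 EAM arrays and no LAD array, at 10.3 to 13.2 units in EAM and 9.999 to 10.58 in LAD.

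The probes of the level members shared a composition. All 365 member probes with a RefSeq sequence to compare were complementary to the 3′ end of the mature miRNA. The run GGGG was present in 33 of 39 probes of the 19 members detected on all arrays (84.6%), in 70% of the probes of the 24 tested members and in 10% of those of the 149 members detected on no array. It was present in 4.80% of all 4415 probes on the array. In the 13 members detected on LAD arrays 1 and 3 only, 30.8% of the probes had it. A run of at least 3 G was present in 69.2% of the probes of these 13. It was in 100% of those of the 19, 45.2% of those of the 149, 54.3% of all member probes and 17.6% of all probes. The probes below are examples of these patterns. miR-7022-3p and miR-6934-3p were level, and miR-6902-3p was higher in EAM. miR-7047-3p, miR-6998-3p, miR-6957-3p and miR-7058-3p were higher on LAD arrays 1 and 3. Runs of 3 or more G are in capitals.
miR-7022-3p probe: tGGGGGcagaggtc
miR-6934-3p probe: ctggtGGGGcagg
miR-7047-3p probe: ggaaggaggaaGGGt
miR-6998-3p probe: tgtgtGGGcacagag
miR-6957-3p probe: ggaagagaaaacaagaga
miR-7058-3p probe: ctggaagaaaggaagga
miR-6902-3p probe: ctgaacccacacatca

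The miR-6902-3p probe has no run of 3 G, and the probes of miR-6957-3p and miR-7058-3p have none but are purine-rich. Purines (A and G) made up a median of 78.6% of the probe bases in the 13 members detected on LAD arrays 1 and 3 only. The median was 75% in the members detected on all 7 arrays and 71.4% in those detected on no array. It was 73.3% over all 199 members and 50% over all probes. Across the 199 members, the excess of LAD arrays 1 and 3 over the other 5 arrays went with the purine share of the probe (Spearman's rho 0.47). The G share alone gave 0.24 and the A share alone 0.17. With the mean unscaled signal of the EAM arrays, rho was 0.39 for purines, 0.59 for G and -0.21 for A. These values describe miRNAs measured on the same 7 arrays and are not a test. The run of G in a probe is the run of C in the miRNA, so a probe's own composition and the level of the miRNA cannot be told apart from these arrays.

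For 198 of the names both arms were on the array. Both were detected in 19 pairs, only the 3p arm in 31, only the 5p arm in 39 and neither in 109. Of the 24 tested 3p arms, 10 had a detected 5p arm. In miR-6980 the 3p arm gave 17.0 to 20.8 units in EAM and 17.8 to 18.2 in LAD, while the 5p arm gave 78.4, 90.9, 67.8 and 70.6 in EAM and 17.2, 31.1 and 18.9 in LAD. The 3p values overlapped between the groups and the 5p values did not. In miR-7080 the 3p arm gave 24.2 to 28.5 in EAM and 23.9 to 27.6 in LAD, and the 5p arm 83.7 to 124 and 19.0 to 36.4. In the quantile-normalized fit, 29 of 48 tested 5p arms were higher in EAM and 3 in LAD, with a median difference of 0.82. Of all tested miRNAs 37.1% and 24.1% were, with a median of 0.40, and without scaling 70% of all were higher in EAM. Whether the arms differ in response was not tested.

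Names just outside the block looked like its level members. miR-6769b-3p, the nearest lower 3p name, gave 14.8 to 19.4 units in EAM and 15.2 to 17.0 in LAD, and miR-7115-3p, the nearest higher one, gave 19.0 to 22.4 and 21.04 to 22.5. Both were called toward LAD after quantile normalization (differences -0.66 and -0.88, limma adjusted p = 0.0178 and 0.0109). Of 6 arms of well-known mirtrons outside the block, 3 were detected, each on all 7 arrays. miR-702-3p was level, at 33.7 to 40.6 in EAM and 36.7 to 39.4 in LAD, and was called toward LAD after quantile normalization (difference -1.23, limma adjusted p = 0.00935). miR-877-3p gave 26.1 to 34.6 in EAM and 47.3, 30.7 and 45.7 in LAD, high on LAD arrays 1 and 3 like miR-7047-3p, and was also called toward LAD (difference -1.55, limma adjusted p = 0.0104). miR-1224-5p gave 160 to 270 in EAM and 62.6, 164 and 70.3 in LAD, and was not called (difference -0.15, limma adjusted p = 0.613).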

How the data were processed

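Intensity per spot and per miRNA, and marks of 0 or 1, came from the deposited scanner files, made with Agilent Feature Extraction 10.7.3.1 per the file headers and not scaled between arrays. The authors' table holds log2 values; the submitters' processing notes name RMA, with no version. Each array had 56430 non-control spots, 4415 probes and 1000 negative-control spots.

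Mean spot signal was corrected with normexp in limma 3.58.1 (R 4.3.3; fitted on non-control spots, no offset), quantile normalized, log2 transformed, and summarized as the median over spots without outlier marks and by median polish over probes. normexp was first fitted on all spots; the fit on non-control spots was taken after seeing that it gave the counts of an earlier analysis of these data, and the other is kept as an alternative. The 423 miRNAs with the detection mark on all arrays of 1 or both groups were tested with limma's lmFit and eBayes, with Benjamini-Hochberg adjustment and a threshold of 0.05. The test was tried on simulated data. Unscaled signal is the mean over a name's probes of the median background-subtracted spot signal. Values under 0.5 were set to 0.5 in ratios of group means. The fits without scaling used normexp-corrected log2 values with quantile normalization left out. Their differences are therefore not the log2 ratios of unscaled signal. Precision is limited by the number of arrays.

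The members, lists and tests were chosen with earlier results of these data known. All tested members were to be named, with up to 15 others detected on some arrays, the nearest 3p names outside, and sequences of up to 12 called members. Alternatives were other background corrections, scalings and filters, total gene signal, the authors' table, a variance trend, the replicate number as a block and each array left out. normexp on all spots, centring on tested miRNAs, and no scaling without LAD array 2 were added after seeing the data. Array positions of these probes were unmapped; RefSeq GRCm38.p6 gave sequences and positions for 175 names.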

Additional observations from a re-analysis of the deposited data

Results flagged for a closer look

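In 3 members, EAM array 1 lay far below the other 3 EAM arrays in quantile-normalized log2 signal: miR-6923-3p at 4.49, miR-6924-3p at 4.16 and miR-7055-3p at 4.60. The gap to the nearest EAM array was 0.854, 0.960 and 0.842 of the group's range, above Dixon's critical value for 4 samples. In unscaled signal EAM array 1 was the highest of the 4 for each of the 3 (19.9, 12.5 and 23.1 units). Chance flags about 1 in 20 groups, and 65 sets of EAM values were examined. EAM array 1 also had the bright negative-control spots; their part in these values was not tested.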

How the results depend on the processing

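The count of members called, 24, became 1 without scaling, 6 with centring on the median of all names, 75 with no filter on detection (all toward LAD; 507 of all 1881 passed), 46 of 50 with detection on at least 1 array (45 toward LAD), 2 with the replicate block, and 13 to 39 without single arrays (13 of 24 without EAM array 4, where 124 of all 428 passed; 39 of 40 without LAD array 2, where 381 of all 458 did). Without scaling and LAD array 2 it was 8. Of the 26 members added by detection on at least 1 array, 22 were detected on LAD arrays only. The 16 added without LAD array 2 passed the filter through the remaining LAD arrays. Calls of these added members toward LAD lend no separate support. Calls toward LAD, 23, became 0, 5, 75, 45, 2, 13 to 38 and 7 under the same settings. Among all miRNAs tested with no filter (1881), 274 were called toward EAM and 233 toward LAD. With the replicate block (423 tested) these were 31 and 27. Without EAM array 4 (428 tested) they were 68 and 56, and without LAD array 2 (458 tested) 234 and 147. The 1 call toward EAM became 0 with the 75th percentile of detected probes, total gene signal, no filter, detection on all 7 arrays and the replicate block, and 0 to 1 without single arrays. With all other alternatives the members called stayed at 19 to 24. Over all tested miRNAs the calls toward EAM and LAD were 157 and 102, against 296 and 2 without scaling, 271 and 37 with centring on all names, 179 and 101 with centring on the tested miRNAs, and 81 and 116 under scaling to the detected probes' 75th percentile.

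The median difference of the tested members (EAM minus LAD, log2), -0.72, was -0.33 without background correction, -0.24 with local background and an offset of 50, -0.28 with centring on all names, -0.99 and -2.03 with the 75th percentile of all and of detected probes, -1.83 by total gene signal, -0.33 in the authors' table and -0.29 with no filter. It was 0.079 without scaling, 0.032 without scaling and LAD array 2, and -0.91 to -0.61 without single arrays.

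Without scaling, 20 of the 23 members higher in LAD turned to the EAM side, none past the threshold, at miR-6897-3p 0.12, miR-6923-3p 0.0198, miR-6924-3p 0.14, miR-6931-3p 0.0085, miR-6934-3p 0.10, miR-6943-3p 0.067, miR-6968-3p 0.069, miR-6976-3p 0.11, miR-6980-3p 0.13, miR-7005-3p 0.078, miR-7022-3p 0.012, miR-7034-3p 0.061, miR-7046-3p 0.18, miR-7052-3p 0.10, miR-7055-3p 0.079, miR-7062-3p 0.0797, miR-7067-3p 0.11, miR-7069-3p 0.19, miR-7080-3p 0.082, miR-7085-3p 0.033. Without scaling and LAD array 2 it was 21 of the 23: miR-6897-3p 0.14, miR-6923-3p 0.025, miR-6924-3p 0.18, miR-6931-3p 0.031, miR-6934-3p 0.14, miR-6943-3p 0.083, miR-6968-3p 0.12, miR-6976-3p 0.15, miR-6980-3p 0.16, miR-7005-3p 0.14, miR-7022-3p 0.0095, miR-7034-3p 0.074, miR-7046-3p 0.21, miR-7052-3p 0.13, miR-7055-3p 0.092, miR-7057-3p 0.022, miR-7062-3p 0.14, miR-7067-3p 0.15, miR-7069-3p 0.24, miR-7080-3p 0.10, miR-7085-3p 0.033.

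The detection difference, -14.25 names, was -20.75 to -9.75 without single arrays, and -8.58 and -15.1 by the 95th and 99th percentile of negative controls. The members' median over negative controls, -0.0030 (log2), was -0.23 in intensity units, and -0.016 to 0.0058 without single arrays, with the sign turned without LAD array 1 (0.0058) or LAD array 3 (0.0016). Same-numbered EAM and LAD arrays deviated together at r = 0.18, -0.18 and -0.18 over the tested miRNAs, so the numbers were not taken to pair the arrays; with the replicate block 58 of all 423 were called. Signals near the negative controls and 3 LAD arrays limit these values; the causes were not tested.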
